A study of Mus musculus with 6 samples.

Results

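The Eif4 genes encode the proteins that bring a capped mRNA to the ribosome. Of this group, 10 genes were followed here in RNA brought down from mouse testis by an antibody against MVH (also called DDX4), the DEAD-box helicase that marks germ cells. They were chosen by name: Eif4b, Eif4h, Eif4a1, Eif4a2, Eif4e, Eif4e2, Eif4ebp1, Eif4g1, Eif4g2 and Eif4g3. Each had 1 probe on the array, out of 23473 probes that carry 16390 gene symbols. All 10 probes were listed on all 6 arrays. Eif4h is annotated on the platform under its older symbol, Wbscr1.

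The samples fall into 3 groups of 2 arrays, numbered 1 and 2 in the labels. The first is RNA precipitated with the MVH antibody. The second is RNA precipitated in the same way with normal rabbit IgG, which measures what the beads and an unrelated antibody bring down. The third is total RNA taken with no antibody. All came from testis of mice labelled C57/BL6, with no genotype, treatment or age given. Per the labels' protocols a lysate was made from 2 testes, so whole-organ RNA of germ cells and somatic cells entered the tubes. In such RNA, fewer cells of a type and less RNA per cell cannot be told apart. Nothing in the labels says whether arrays 1 and 2 came from separate animals, so the spread behind each p-value may be technical.

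Translation of most mRNAs begins at the 5′ cap. The protein eIF4E binds the cap, eIF4G is the scaffold that joins eIF4E to the helicase eIF4A, and eIF4A unwinds the leader of the mRNA with the help of eIF4B or eIF4H. The inhibitor 4E-BP1 takes the place of eIF4G on eIF4E. Male germ cells store many mRNAs before they translate them, and MVH lies in their RNA granules. What was measured is the mRNA of each factor, not its protein, and the question is whether that mRNA was found with MVH.

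Intensities are given after each array was centred on its median and scaled back to a median of 30, and are called scaled intensities. A probe's scaled intensity can be compared between arrays but not with that of another probe. Amplification and centring remove the yield of each precipitate, so a probe that is lower with MVH is lower only relative to the other probes. Each array listed 22090 to 22965 probes. The SD of the log2 difference between the arrays of a group was 0.47 for MVH, 0.60 for IgG and 0.45 for total RNA. Germ cell genes were listed in all 3 groups. The 18 round spermatid genes with a probe summed to scaled intensities of 133500 to 179000 with MVH, 82330 to 94870 with IgG and 105000 to 128700 in total RNA. No sample of another tissue was included, so these sums do not test the testis label. Ddx4, which encodes MVH, had scaled intensities of 1396 and 1559 on the MVH arrays, 1468 and 1391 on the IgG arrays and 860 and 1306 on the total RNA arrays.

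In the MVH against the IgG precipitate, 2 of the 10 genes rose and 2 fell (limma, adjusted p under 0.05 over all probes tested). The mRNAs of the helicase stimulator eIF4B and of the cap-binding protein 4EHP, encoded by Eif4e2, were higher with MVH by 5.36-fold and 2.89-fold. Those of both forms of the helicase, Eif4a1 and Eif4a2, were lower by 2.54-fold and 2.61-fold. Over all 21574 probes tested, 3.82% were called higher and 4.15% lower. The median log2 difference of the 10 genes was 0.020, against 0.072 over all probes. The median size of the difference without its sign was 1.17 for the 10 genes and 0.40 over all probes.

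The start of the transcript is shown for the 4 genes that passed, because the bases next to the cap are the part of an mRNA that these factors act on. RefSeq's table of starts for GRCm38.p6 held 8 of the 10 genes, with 12 starts. In each line the lower-case letters are the 15 bases before the annotated start and the capitals are the first 15 transcribed bases, on the gene's own strand. For Eif4e2 the first of 3 listed starts is shown.
Eif4b (chr15:102073758-102073787, plus strand): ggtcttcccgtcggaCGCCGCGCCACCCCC
Eif4e2 (chr1:87213896-87213925, plus strand): ctgagcgcctcgccaGCCAACCGGAAGTAG
Eif4a1 (chr11:69672409-69672438, minus strand): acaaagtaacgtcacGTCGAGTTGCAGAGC
Eif4a2 (chr16:23107453-23107482, plus strand): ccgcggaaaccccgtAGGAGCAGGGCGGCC
Pyrimidines made up 11 of the first 15 bases of Eif4b, 5 of those of Eif4e2, 6 of those of Eif4a1 and 4 of those of Eif4a2, where the median over all 32851 starts was 7. A terminal pyrimidine tract, taken as a C at the first base with 4 pyrimidines after it on the transcribed strand, was held by 0 of the 12 starts and by 2.51% of all starts. Annotated starts can lie some bases from the true one, so these counts describe the annotation.

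Of the helicase stimulators, Eif4b rose with MVH and Eif4h did not pass. Eif4b (probe M400006431) had scaled intensities of 148 and 132 on the MVH arrays, 30.6 and 22.2 on the IgG arrays and 71.1 and 61.0 on the total RNA arrays. Both MVH arrays lay above both total RNA arrays, which lay above both IgG arrays. Its log2 difference between MVH and IgG was 2.42 ± 0.29 (SE, n = 2 arrays each, limma adjusted p = 0.0148), larger than that of 99.8% of all probes tested. Eif4h, whose protein resembles part of eIF4B and also stimulates eIF4A, was bright at 3339 and 3397 on the MVH arrays, 4065 and 3739 on the IgG arrays and 2208 and 2671 on the total RNA arrays. The MVH arrays of Eif4h lay below the IgG arrays and above the total RNA arrays, and its difference between MVH and IgG was -0.21 ± 0.27 (adjusted p = 0.677, 95% interval -0.82 to 0.39). With the values as deposited, not centred, that difference turned to 0.053 (adjusted p = 0.946).

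Both helicase genes fell with MVH against IgG, the contrast in which Eif4b rose. Eif4a1 (probe M400008611), the more widely used form of eIF4A and like MVH a DEAD-box protein, had scaled intensities of 683 and 610 on the MVH arrays, 1855 and 1451 on the IgG arrays and 767 and 956 on the total RNA arrays. The IgG arrays stood far above the other 4 arrays. Its difference between MVH and IgG was -1.34 ± 0.28 (SE, n = 2 arrays each, limma adjusted p = 0.0301). Eif4a2 (probe M300003570), the close relative of Eif4a1, had 598 and 923 on the MVH arrays, 2018 and 1857 on the IgG arrays and 833 and 829 on the total RNA arrays. Here too the IgG arrays were the highest, and the MVH arrays fell on either side of total RNA. The difference between MVH and IgG was -1.38 ± 0.30 (adjusted p = 0.0313). The genes are closely related in sequence, and whether either probe also binds the RNA of the other gene was not tested.

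Of the cap-binding protein genes, Eif4e2 passed and Eif4e did not. Eif4e (probe M200001516), which recruits the ribosome through eIF4G, had scaled intensities of 94.0 and 133 on the MVH arrays, 214 and 238 on the IgG arrays and 138 and 177 on the total RNA arrays. The MVH arrays were the lowest and the IgG arrays the highest, with no overlap between groups. Its difference between MVH and IgG, -1.01 ± 0.30, did not pass (adjusted p = 0.0719, 95% interval -1.69 to -0.34), but did under 4 of the alternatives, with adjusted p = 0.0277 to 0.047. Eif4e2 (probe M200001152), whose protein binds the cap without eIF4G and is known as a repressor, had 441 and 374 on the MVH arrays, 151 and 131 on the IgG arrays and 251 and 307 on the total RNA arrays. The order of its groups was that of Eif4b, and the difference between MVH and IgG was 1.53 ± 0.28 (SE, n = 2 arrays each, limma adjusted p = 0.0214). Eif4ebp1, the gene of the inhibitor 4E-BP1, was dim at 17.2 and 13.9 on the MVH arrays, 19.2 and 13.7 on the IgG arrays and 25.2 and 21.7 on the total RNA arrays. Its precipitates overlapped and both lay below total RNA. The difference between MVH and IgG was -0.069 ± 0.30 (adjusted p = 0.915, 95% interval -0.74 to 0.60), and with no centring it was 0.20.

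None of the scaffold genes passed. Eif4g2, whose product DAP5 lacks the part of eIF4G that binds eIF4E, had scaled intensities of 284 and 1083 on the MVH arrays, 177 and 274 on the IgG arrays and 235 and 203 on the total RNA arrays. MVH array 2 stood far above every other array, while MVH array 1 lay just above the higher IgG array. The difference between MVH and IgG was 1.33 ± 0.55 (adjusted p = 0.17). It was 2.30 without MVH array 1 and 0.36 without MVH array 2, so that 1 array decided its size. Eif4g3, a form of the scaffold that mouse spermatocytes need to complete meiosis, had 40.8 and 31.9 on the MVH arrays, 28.4 and 18.6 on the IgG arrays and 31.7 and 29.8 on the total RNA arrays. The groups of precipitates did not overlap, but the gap between them was small beside their spread (0.65 ± 0.31, adjusted p = 0.227, 95% interval -0.048 to 1.35). It was 0.96 without IgG array 1 and 0.35 without IgG array 2. Eif4g1, the main scaffold, had a dim probe at 7.9 and 6.0 on the MVH arrays, 11.3 and 3.6 on the IgG arrays and 38.8 and 16.2 on the total RNA arrays. The IgG arrays enclosed the MVH arrays, and the difference between MVH and IgG was 0.11 ± 0.57 (adjusted p = 0.931), with -0.098 when an offset was added before log2.

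**Figure D1:**
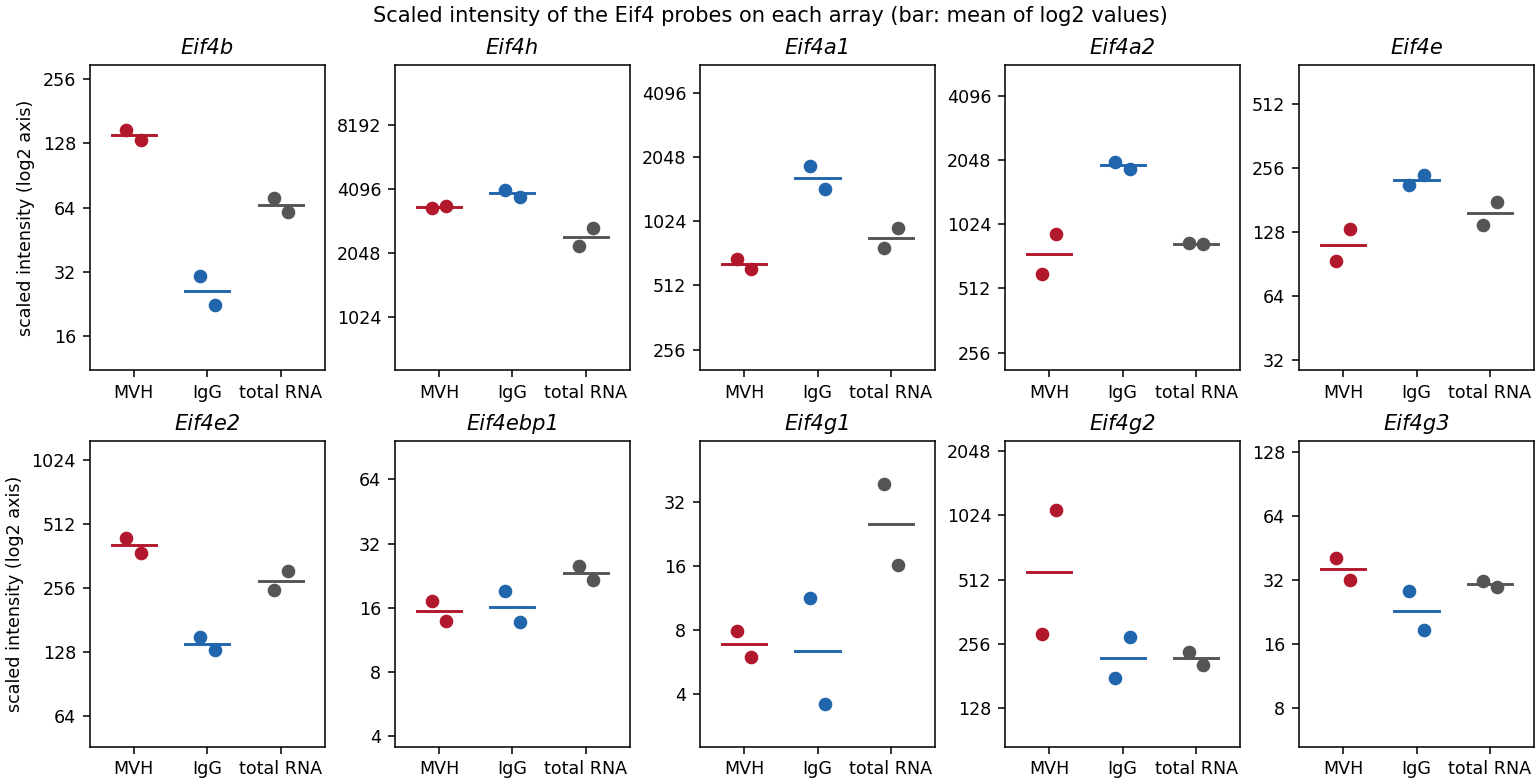
Scaled intensity (log2 axis, each array centred to a median of 30) of the 10 Eif4 probes on the 2 arrays of MVH precipitate, IgG precipitate and total RNA, with 1 point per array and a bar at the mean of the log2 values. The Eif4b and Eif4e2 points run from MVH at the top through total RNA to IgG, whereas the IgG points are the highest for Eif4a1, Eif4a2 and Eif4e.

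Counted by array, 4 of the 10 genes were higher on both MVH than on both IgG arrays, and 4 were lower. Groups failed to overlap in this way at 29.9% of all probes in the higher direction and at 23.8% in the lower. The 4 higher genes were Eif4b, Eif4e2, Eif4g2 and Eif4g3. The 4 lower genes were Eif4h, Eif4a1, Eif4a2 and Eif4e, and the arrays of Eif4ebp1 and Eif4g1 overlapped.

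The 4 calls rest on arrays other than the precipitates too. The same held over the whole array, where fitting only the 4 precipitate arrays called 0 of 21574 probes in either direction. When only the 4 precipitate arrays were fitted, Eif4b had an adjusted p of 0.0533, Eif4e2 of 0.0556, Eif4a1 of 0.066 and Eif4a2 of 0.0715, and the same values came without total RNA array 1 or total RNA array 2, which enter only the estimate of the spread. Without either MVH array the 4 calls were lost as well, as were most or all calls over all probes. The differences without MVH array 1 were 2.34 for Eif4b, 1.41 for Eif4e2, -1.43 for Eif4a1 and -1.07 for Eif4a2. Without MVH array 2 they were 2.50, 1.65, -1.26 and -1.69 in the same order. Eif4b and Eif4e2 still passed without either IgG array. Eif4a1 was lost without IgG array 1 (0.078), and Eif4a2 without IgG array 1 (0.0753) or IgG array 2 (0.0572). Without centring, the median over all probes moved from 0.072 to 0.34, Eif4a1 (-1.08, adjusted p = 0.159) and Eif4a2 (-1.12, adjusted p = 0.142) no longer passed, and Eif4b (2.69) and Eif4e2 (1.79) did.

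In the same contrast, 8 lists of testis cell markers were tested. Calls were all downwards for Leydig, Sertoli, and peritubular and vascular cells. They were all upwards for spermatids, in both directions for earlier germ cells, and absent for blood and immune cells. Of 7 Leydig cell genes tested, 5 were lower with MVH and 0 higher (0 higher also at an unadjusted p under 0.05), with a median of -1.88. Their summed scaled intensity was 537 to 571 with MVH, 2017 to 3159 with IgG and 709 to 1183 in total RNA. Of the 18 round spermatid genes, 6 were higher and 0 lower (9 and 0 at an unadjusted p under 0.05), with a median of 0.81. For elongating spermatids 4 of 15 genes passed upwards and 0 downwards (6 and 0 at an unadjusted p under 0.05), with a median of 0.45. The meiotic prophase genes divided, with 3 of 16 higher, 2 lower and a median of 0.0033, as did the spermatogonial genes, with 1 of 11 higher, 3 lower and a median of 0.0059. The sum of the spermatogonial genes was 3139 to 3435 with MVH, 6664 to 9761 with IgG and 4143 to 4394 in total RNA. A higher sum with IgG was thus not confined to somatic lists. Of the other somatic lists, 1 of 10 Sertoli cell genes was lower and 0 higher (2 and 0 at an unadjusted p under 0.05, median 0.042). Their sum was 4636 to 4815 with MVH, 7685 to 9678 with IgG and 6179 to 6651 in total RNA. Of 7 peritubular and vascular genes, 2 were lower and 0 higher (3 and 0 at an unadjusted p under 0.05, median -0.24). Their sums in the same order were 373 to 572, 1485 to 3185 and 442 to 534. Such sums are led by the brightest probes. The median log2 difference between IgG and total RNA was 1.17 for the Leydig, 0.033 for the Sertoli and -0.185 for the peritubular and vascular genes. In the Sertoli and the peritubular and vascular lists the higher sum with IgG was therefore not shared by most genes. Of the blood and immune genes 0 of 5 passed (1 higher at an unadjusted p under 0.05, median 0.29). These counts stand against the 3.82% called higher and 4.15% called lower over all probes. The table lists no value of 0, and low values can be blank. The part of these cells in the values of the Eif4 genes was not tested.

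The comparison with total RNA sets the precipitate against the abundance of each mRNA, and here 0 of the 10 genes passed in either direction (limma, 3 at an unadjusted p under 0.05). Over all 21793 probes tested, 0.00459% were called higher and 0.00918% lower, and 8.93% had an unadjusted p under 0.05. Eif4b was 2.12-fold higher with MVH than in total RNA (log2 1.09 ± 0.29, SE, n = 2 arrays each, limma adjusted p = 0.296, 95% interval 0.44 to 1.74). This difference was larger than that of 98.0% of all probes. Eif4g2 differed by 1.34 ± 0.55 (adjusted p = 0.516), again through MVH array 2, since the value was 0.38 without it. Eif4g1 differed by -1.86 ± 0.57 (adjusted p = 0.361), a size that is uncertain because the probe was dim in both precipitates, and -1.24 without total RNA array 1.

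The other 7 genes lay within 0.60 of total RNA on the log2 scale. Eif4e2 differed by 0.55 ± 0.28, Eif4h by 0.47 ± 0.27 and Eif4g3 by 0.23 ± 0.31. On the lower side were Eif4ebp1 at -0.60 ± 0.30, Eif4e at -0.49 ± 0.30, Eif4a1 at -0.41 ± 0.28 and Eif4a2 at -0.16 ± 0.30. Both helicase genes, which were lower with MVH than with IgG, thus had 95% intervals against total RNA that spanned 0: -1.05 to 0.24 for Eif4a1 and -0.84 to 0.52 for Eif4a2. Without MVH array 1 the difference of Eif4a2 was 0.15. By array, 5 of the 10 genes were higher on both MVH arrays than on both total RNA arrays and 4 were lower, against 18.7% and 21.6% of all probes.

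**Figure D2:**
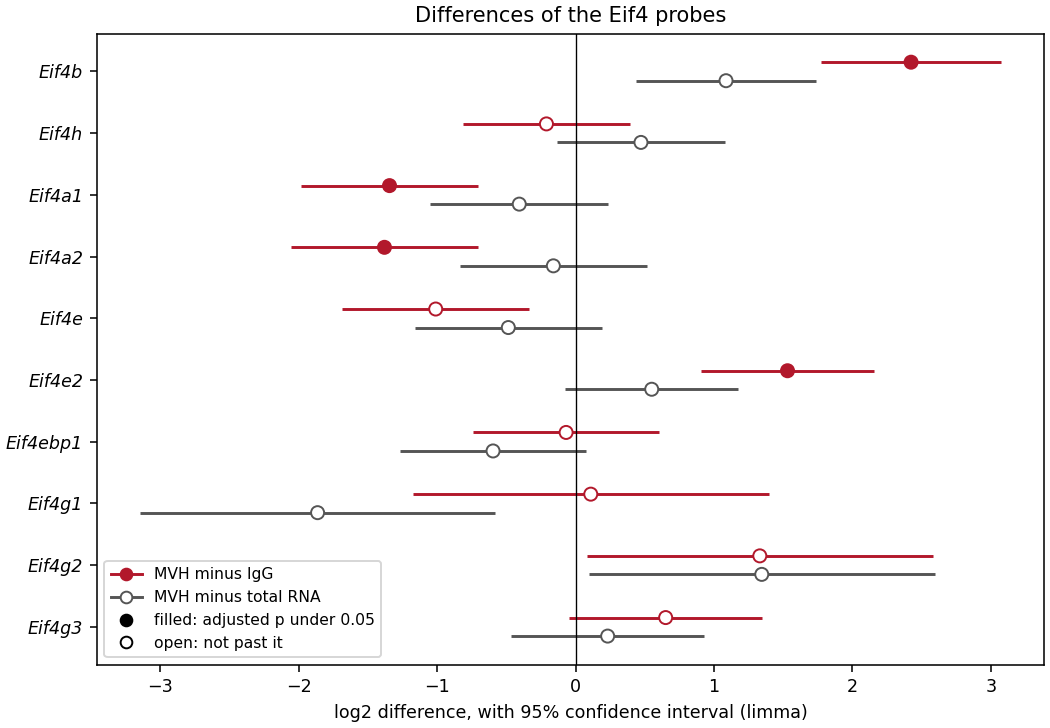
Log2 differences of the 10 Eif4 probes with 95% confidence intervals from limma, for MVH minus IgG (red) and MVH minus total RNA (grey). Filled points passed the threshold of 0.05 on the adjusted p, which Eif4b, Eif4e2, Eif4a1 and Eif4a2 did against IgG and none did against total RNA.

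The IgG precipitate was also set against total RNA. Of the 10 genes, 0 passed in this contrast (limma, 6 at an unadjusted p under 0.05), where 0.00934% of all 21413 probes tested were called higher, 0% lower, and 18.2% had an unadjusted p under 0.05. Eif4a2 was 2.33-fold higher with IgG than in total RNA (log2 1.22 ± 0.30, SE, n = 2 arrays each, limma adjusted p = 0.0919) and Eif4a1 1.92-fold higher (0.94 ± 0.28, adjusted p = 0.134). Eif4b was lower with IgG by 2.53-fold (-1.34 ± 0.29, adjusted p = 0.0723) and Eif4e2 by 1.97-fold (-0.98 ± 0.28, adjusted p = 0.119). The dim probe of Eif4g1 differed by -1.97 ± 0.57, and by -2.80 without IgG array 1 and -1.15 without IgG array 2. The difference of Eif4h was 0.68 ± 0.27, that of Eif4e 0.52 ± 0.30, that of Eif4ebp1 -0.53 ± 0.30 and that of Eif4g3 -0.42 ± 0.31. For Eif4g2 the value was 0.014 ± 0.55, and it was negative under 6 of the alternatives, at -0.30 to -0.018. By array, 4 genes were higher with IgG and 5 lower, where the groups stood apart in that way at 20.0% and 29.6% of all probes.

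The contrasts share arrays, so their values are set side by side and not tested against each other. For Eif4b the difference of 2.42 between the precipitates is made up of 1.09 above total RNA with MVH and 1.34 below it with IgG. For Eif4e2 these parts are 0.55 and 0.98. For Eif4a1 the part with MVH is -0.41 and that with IgG is 0.94, and for Eif4a2 they are -0.16 and 1.22. In all 4 genes the larger part lay between IgG and total RNA.

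Eif4b was then set against each partner on the same arrays, by fitting the log2 ratio of Eif4b to every other probe. The ratio of Eif4b to the partner was higher with MVH than with IgG for 8 of 9 partners past the threshold (limma, adjusted over 21573 probes). The largest rises were 14.0-fold against Eif4a2 (log2 3.80 ± 0.37, SE, n = 2 arrays each, limma adjusted p = 1.5e-05) and 13.6-fold against Eif4a1 (3.77 ± 0.34, adjusted p = 1.43e-05), its partners in unwinding. Against Eif4e the rise was 3.43 ± 0.39, against Eif4h 2.63 ± 0.35, against Eif4ebp1 2.49 ± 0.32, against the dim probe of Eif4g1 2.31 ± 0.46 and against Eif4g3 1.77 ± 0.32. The smallest that passed was against Eif4e2, at 0.89 ± 0.34 (adjusted p = 0.0247). Against Eif4g2 it was 1.09 ± 0.59 (adjusted p = 0.0931, 95% interval -0.21 to 2.39). The same test called Eif4b higher than 97.8% of all probes, so the count of 8 of 9 describes Eif4b and is nothing particular to its partners. With so many probes called, the adjustment hardly changed the values nearest the threshold. Every ratio also holds the same Eif4b values, which the fit treats as separate for each probe. The adjusted values of the ratios are therefore not comparable with those of single genes and are not stronger evidence than these.

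With MVH against total RNA, Eif4b rose relative to 6 of 9 partners, and relative to 71.8% of all probes. The partners were Eif4g1 (2.95 ± 0.46), Eif4ebp1 (1.68 ± 0.32), Eif4e (1.57 ± 0.39), Eif4a1 (1.49 ± 0.34), Eif4a2 (1.25 ± 0.37) and Eif4g3 (0.86 ± 0.32). The size of the first is uncertain, since Eif4g1 was dim on the MVH arrays. The values against Eif4h (0.61 ± 0.35), Eif4e2 (0.54 ± 0.34) and Eif4g2 (-0.26 ± 0.59) did not pass. Without MVH array 1 the test passed for 2 of the 9 partners and 4.96% of all probes, and without total RNA array 2 for 0 of the 9 and 0.036% of all probes. All these ratios share the values of Eif4b and are not independent of each other, so the limit on their adjusted values holds here too.

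**Figure D3:**
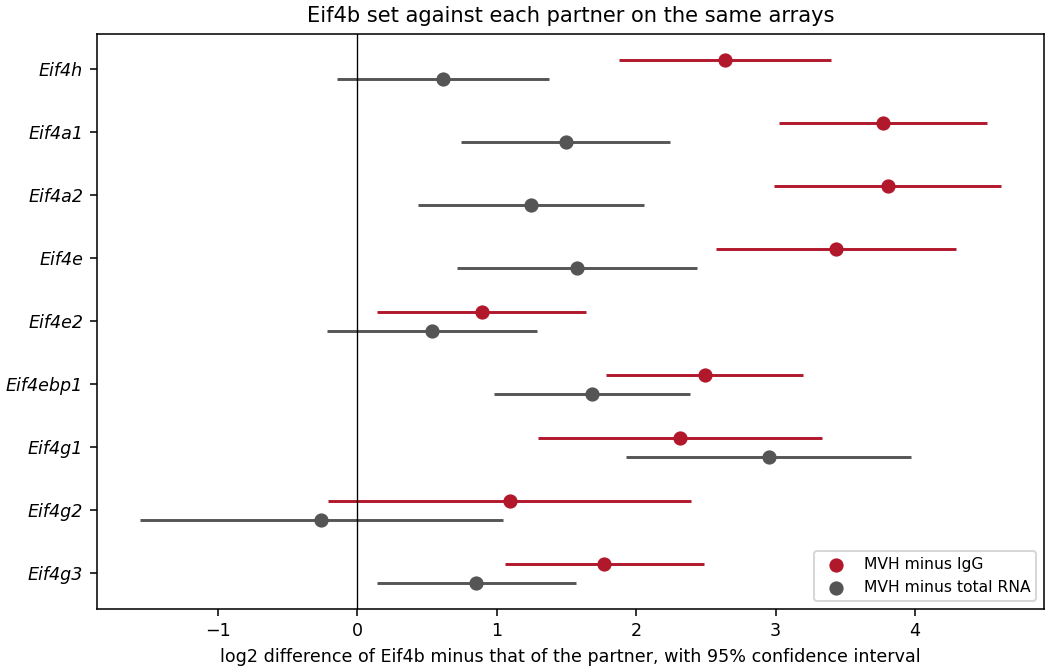
Log2 difference of Eif4b minus that of each of 9 partners, with 95% confidence intervals from limma, for MVH minus IgG (red) and MVH minus total RNA (grey). Eif4b stands furthest from Eif4a1 and Eif4a2 between the precipitates (3.77 and 3.80) and closest to Eif4e2 (0.89) among the partners that passed.

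Among 14783 probes with a descriptive symbol, those most like Eif4b over the 6 arrays were ranked by the root mean square of the log2 differences after each probe was centred on its own mean. The closest were Strap (0.13), which encodes a protein of the SMN complex, Ccer1 (0.14), Pabpc6 (0.15), a poly(A)-binding protein gene, Spata20 (0.15), a spermatogenesis-associated gene, and Optn (0.19), which encodes an autophagy receptor. Pabpc6, for example, had scaled intensities of 79.3 and 80.4 on the MVH arrays, 19.2 and 16.0 on the IgG arrays and 44.7 and 32.3 on the total RNA arrays. Of the partners, Eif4e2 was by far the nearest to Eif4b at 0.40, with 0.778% of the ranked probes closer. Eif4g3 followed at 0.73, with 10.6% closer, and Eif4a2 was the furthest at 1.60, with 96.9% closer. These ranks describe 6 arrays that share 1 scaling.

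Regulators of the cap complex included poly(A)-binding proteins, kinases and eIF4E-binding proteins. Of 27 such genes listed, 24 had a probe and were tested. In the MVH against the IgG precipitate 2 rose and 2 fell (6 and 4 at an unadjusted p under 0.05), where 3.82% of all probes were called higher, 4.15% lower and 25.5% had an unadjusted p under 0.05. The median of the list was 0.21, against 0.072 over all probes. Pabpc6 was higher by 2.19 ± 0.29 (SE, n = 2 arrays each, limma adjusted p = 0.0161). Its probe was dim on the IgG arrays, and with an offset of 4 before log2 the difference was 1.94. Pabpc1, whose protein binds the poly(A) tail and eIF4G, was very bright at 17820 and 15010 on the MVH arrays, 6153 and 6754 on the IgG arrays and 10200 and 8833 on the total RNA arrays. Its difference between MVH and IgG was 1.34 ± 0.27 (adjusted p = 0.0266). Its groups did not overlap, and their order was that of Eif4b.

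The 2 genes that fell were Rptor and Angel1. Rptor, which encodes a subunit of the mTORC1 kinase complex that controls 4E-BP1, had 49.4 and 70.4 on the MVH arrays, 148 and 184 on the IgG arrays and 56.4 and 67.7 on the total RNA arrays (-1.48 ± 0.30, adjusted p = 0.0275). As with Eif4a1 and Eif4a2, the IgG arrays stood apart from the rest. Angel1, an eIF4E-binding protein gene, differed by -1.14 ± 0.28 (adjusted p = 0.0422). With no centring Rptor (-1.22, adjusted p = 0.0977) and Angel1 (-0.87, adjusted p = 0.253) were lost. The calls of Pabpc6, Pabpc1, Rptor and Angel1 were lost with only the 4 precipitate arrays (adjusted p = 0.0533 to 0.0846). That fit called 0 of 21574 probes, so the loss is not particular to these genes. As single arrays were left out, which of them passed changed, and so did the calls over all probes. The differences then ran from 2.06 to 2.32 for Pabpc6 and from 1.22 to 1.47 for Pabpc1. Those of Rptor ran from -1.74 to -1.23 and those of Angel1 from -1.32 to -0.95. Against total RNA 0 of the 24 passed (limma, 3 higher and 0 lower at an unadjusted p under 0.05). Over all probes only 0.00459% were called higher and 0.00918% lower there, and 8.93% had an unadjusted p under 0.05. Pabpc6 was at 1.07 ± 0.29, Pabpc1 at 0.78 ± 0.27, Angel1 at -0.58 ± 0.28 and Eif4e3, a further cap-binding protein gene, at -0.30 ± 0.41.

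A second list held the factors that act after the cap complex, in loading the initiator tRNA, scanning and subunit joining. Of 30 listed, 25 had a probe and were tested, and 1 rose and 0 fell in the MVH against the IgG precipitate (3 and 2 at an unadjusted p under 0.05). Beside the 3.82%, 4.15% and 25.5% of all probes just given, these counts are no result about the list. Its median was 0.064. Eif3a, a core subunit of eIF3, had scaled intensities of 35.8 and 39.5 on the MVH arrays, 19.3 and 13.7 on the IgG arrays and 19.5 and 19.0 on the total RNA arrays (1.21 ± 0.28, SE, n = 2 arrays each, limma adjusted p = 0.0386). Its MVH arrays lay above the other 4, which overlapped and were dim. With an offset of 4 before log2 the difference was 1.00 (limma adjusted p = 0.0168). The call of Eif3a was lost with no centring, where the difference was larger at 1.47 (adjusted p = 0.0664). It was also lost with only the 4 precipitate arrays (adjusted p = 0.0831), a fit that called 0 of 21574 probes. As single arrays were left out the difference ran from 0.96 to 1.46, and whether it passed changed, as did the calls over all probes. Another eIF3 subunit, Eif3m, differed by 1.19 ± 0.36 (adjusted p = 0.0779). At the other end were Eif1b, a start codon selection factor, at -0.95 ± 0.28 (0.0727), and Eif3c, also of eIF3, at -0.77 ± 0.33 (0.18). Against total RNA 0 of the 25 passed (limma, 2 higher and 2 lower at an unadjusted p under 0.05). The shares over all probes were again 0.00459% higher, 0.00918% lower and 8.93% with an unadjusted p under 0.05. Eif3a was at 0.97, the subunit joining factor Eif5b at 0.90, Eif3h at -0.73 and Eif2b1 at -0.94.

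**Figure D4:**
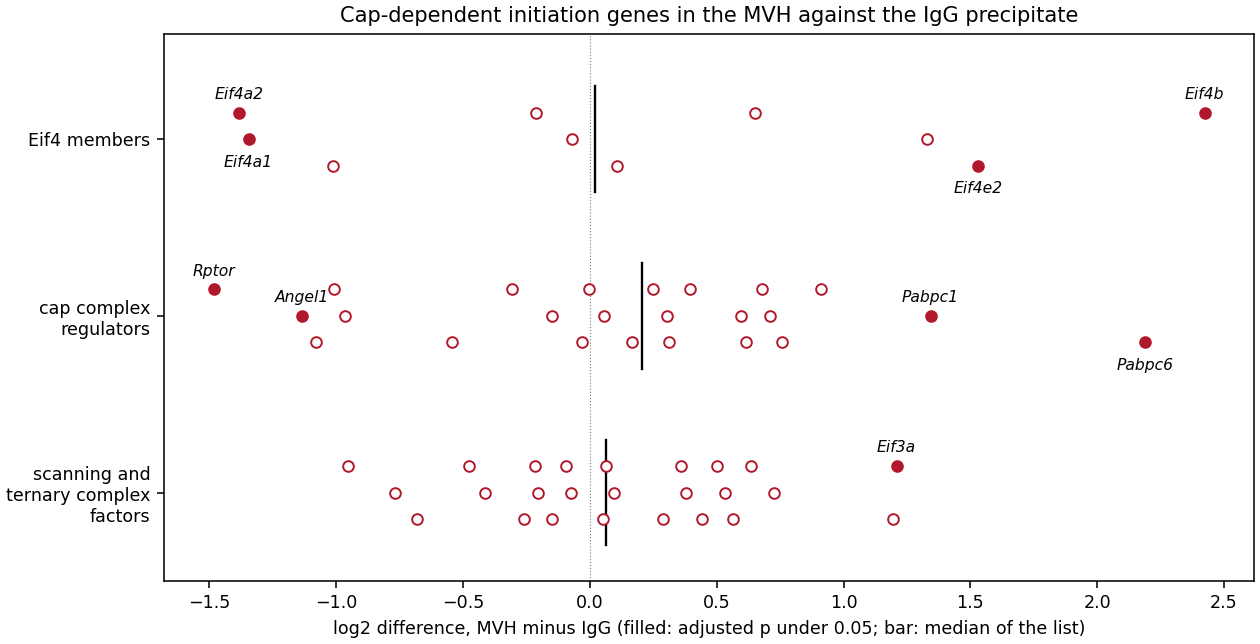
Log2 difference between the MVH and the IgG precipitate for the 10 Eif4 genes, 24 regulators of the cap complex and 25 scanning and ternary complex factors, with 1 point per gene, filled where the adjusted p was under 0.05, and a bar at the median of each list (0.020, 0.21 and 0.064). The named points are the genes that passed, 4 of them Eif4 genes.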

How the data were processed

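Each array carried a single Cy5-labelled sample, amplified as aminoallyl aRNA, per the labels' protocols. The deposited values are the linear intensity of each probe. Their median was 30 on 5 arrays and 20.8 on the array of IgG precipitate 2, and the reason for this difference is not known. No scanner, background correction, scaling method or rule for blank cells (508 to 1383 per array) is given in what was used here, and precision is limited by the number of arrays.

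Platform symbols were updated through a synonym that belongs to a single current gene (RefSeq, GRCm38.p6), which changed 3947 of 16631 symbols. No build is named in the table, so coordinates are given only with RefSeq's own sequences. Intensities were converted to log2, each array was centred on its median, and all 6 arrays were fitted together without a block (lmFit and eBayes of limma 3.58.1, R 4.3.3). Probes blank on any of the 4 arrays of a contrast were not tested in it. Benjamini-Hochberg adjustment ran over all tested probes, with a threshold of 0.05, and no p was adjusted over a gene list alone. The same fit on the log2 ratio of Eif4b to every other probe tested unequal change. The steps were tested on simulated data. Of genes with several probes, the one with the highest mean was used.

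The 10 genes, the lists and the tests were chosen with earlier results of these data known. The text names all 10, Ddx4, the list members past the threshold and the 2 highest and 2 lowest of a list in a contrast, and the 5 probes most like Eif4b. Alternatives were no centring, centring on the 75th percentile, quantile normalization, an offset of 4 before log2, dropping the dimmest 25% of probes, 1 probe per symbol, no probe with a blank, a robust fit with a variance trend, only the 4 arrays compared, a replicate block, and leaving out each array. Python 3.11.15 and matplotlib 3.10.9 drew the plots.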

Additional observations from a re-analysis of the deposited data

How the results depend on the processing

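Of the 10 genes, 2 rose and 2 fell between MVH and IgG. The lower count was 0 with no centring, and both counts were 0 when only the 4 arrays compared were fitted. As single arrays were left out, which of the 4 called genes passed changed, and so did the counts over all probes. Their log2 differences between MVH and IgG kept their signs. They ran from 2.19 to 2.65 for Eif4b and from 1.41 to 1.65 for Eif4e2. For Eif4a1 they ran from -1.52 to -1.17 and for Eif4a2 from -1.69 to -1.07. For the IgG precipitate against total RNA the counts of 0 and 0 became 1 higher and 2 lower with an offset before log2, with a variance trend and when the dimmest 25% of probes were dropped, and 1 lower with probes listed on all 6 arrays. The counts over all probes moved too, being 2 higher and 0 lower at first, 666 and 421 with the offset, 798 and 455 with the trend, 773 and 410 without the dimmest probes, and 344 and 125 with probes listed on all 6 arrays. Eif4b rose relative to 6 of 9 partners against total RNA, a count that ran from 0 to 6 as single arrays were left out, while the share of all probes ran from 0.036% to 79.3%. The cause of these changes was not tested. For MVH against total RNA the counts stayed at 0 under every alternative run. Over all probes, the 824 higher and 895 lower between the precipitates became 702 and 121 with no centring, 1507 and 1636 with a variance trend, and 0 and 0 with only the 4 arrays compared.

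Signs turned only for values that passed no threshold. With no centring, MVH minus IgG was 0.053 for Eif4h and 0.20 for Eif4ebp1. With an offset it was -0.098 for Eif4g1. IgG minus total RNA for Eif4g2 was -0.25 with no centring, -0.042 with the 75th percentile, -0.069 with quantile normalization and -0.018 with an offset. As single arrays were left out, MVH minus IgG ran from -0.31 to 0.17 for Eif4ebp1 and from -0.71 to 0.93 for Eif4g1, MVH minus total RNA from -0.47 to 0.15 for Eif4a2, and IgG minus total RNA from -0.30 to 0.33 for Eif4g2.

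The labels give the groups the same replicate numbers but do not say that a number marks a shared lysate. Deviations of same-numbered arrays correlated at 0.157 for MVH and IgG, 0.156 for MVH and total RNA and 0.101 for IgG and total RNA over 21241 probes, and with 2 numbers this is no more than a hint. With the replicate number as a block, 2 of the 10 genes were higher and 3 lower between the precipitates (Eif4e passed, adjusted p = 0.047), where 5.1% and 5.39% of all probes were called. Eif4b rose relative to 9 of 9 partners and 98.6% of all probes.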

Other observations

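Between the IgG precipitate and total RNA, 0 of the 24 regulators of the cap complex passed (limma, 2 higher and 1 lower at an unadjusted p under 0.05). Over all probes 0.00934% were called higher and 0% lower, and 18.2% had an unadjusted p under 0.05. Cyfip1, which encodes a partner of eIF4E, had scaled intensities of 80.7 and 65.7 on the MVH arrays, 140 and 153 on the IgG arrays and 47.4 and 53.7 on the total RNA arrays. Its difference between IgG and total RNA was 1.54 ± 0.27 (adjusted p = 0.0547), the highest of the list, followed by Rptor at 1.42 ± 0.30 (0.0719). The lowest were Pabpc6 at -1.12 ± 0.29 (0.0991) and Pabpc1 at -0.56 ± 0.27 (0.318). Of the 25 scanning and ternary complex factors, 0 passed (2 higher and 2 lower at an unadjusted p under 0.05). The highest were Eif3c at 0.88 and Eif5b at 0.84, and the lowest were Eif3m at -0.90 and Eif3f at -0.84. The same shares over all probes stand beside these counts.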
